A study of Mus musculus with 8 samples.

Results

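Adipogenic induction in flat culture was examined in 4 of the 8 RNA sequencing libraries of the series, over all genes with enough counts. The comparison sets 2 libraries of induced 3T3-L1 cells against 2 libraries of uninduced 3T3-L1 cells, chosen by the groups in the sample titles. The other 4 libraries came from spheroids of the same line, 2 induced and 2 uninduced, and serve here only where the inductions are set side by side or the model is widened. All cultures were taken on day 7.

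3T3-L1 is a line of mouse embryonic fibroblasts committed to the fat lineage, called preadipocytes, which store lipid droplets once they are induced. It is 1 established line, so the libraries carry no variation between animals. Both flat groups grew in planar dishes in high-glucose medium with calf serum, biotin, pantothenate, antibiotics and methylcellulose, and were divided once they had reached about 90% confluence. Per the labels, induced cultures received 250 nM dexamethasone, a synthetic glucocorticoid, and 10 nM triiodothyronine, the active thyroid hormone, in the first 2 days. They also received 10 µM troglitazone, a drug that activates the nuclear receptor PPARG, and 1 µg/ml insulin on each of the 7 days. The labels name no added drug or hormone for the uninduced group, and call the cells of both groups preadipocytes. Spheroids were grown in hanging drops with the same additions for their induced group.

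As background, fat cell formation is driven by a cascade of transcription factors in which early C/EBP proteins switch on Pparg and Cebpa. These then maintain each other and the genes of lipid storage, hormone secretion and insulin-responsive glucose uptake. The fibroblast matrix and the contractile actin cytoskeleton are usually taken down as the cells round up and fill with lipid.

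The uninduced libraries held 21169390 and 14017630 counts and the induced libraries 11839374 and 15102312, so that 1 CPM (counts scaled to a common library size) stood for 11.8 to 21.2 counts. Of 49585 genes in the file, 14251 had enough counts to be tested. Replicates correlated at 0.993 in the uninduced and 0.991 in the induced group across genes, which are not independent replicates. Mitochondrially encoded genes held 0.303 to 0.343% of the counts in the flat libraries. The samples of a group were prepared independently per the series, but nothing says that they were separate cultures. The p-values therefore reflect only how these libraries spread, which may be technical. CPM is not divided by gene length, so levels are compared within a gene and not between genes. Fold changes are log2 values, induced minus uninduced, ± their standard error from the model, with n = 2 libraries in each group. A gene rose or fell where edgeR's quasi-likelihood test on the 4 flat libraries gave a Benjamini-Hochberg adjusted p under 0.05 and the change was at least 2-fold.

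Induction raised 627 genes (4.4% of those tested) and lowered 586 (4.11%). The changes upward reached further: 82 genes rose and 5 fell at least 16-fold, and 228 rose and 122 fell at least 4-fold. The median over all genes was 0.00. The genes that rose held 1.63 and 1.6% of all counts in the uninduced and 5.4 and 5.32% in the induced libraries. Those that fell held 2.9 and 2.9% without and 1.16 and 1.15% with induction. With all 8 libraries in the model, where the wider spread between spheroid replicates enters the test, 484 genes rose and 205 fell, and 684 of these 689 were among the calls made on the flat libraries. In total, 813 of the 1213 calls held without each flat library in turn.

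**Figure D1:**
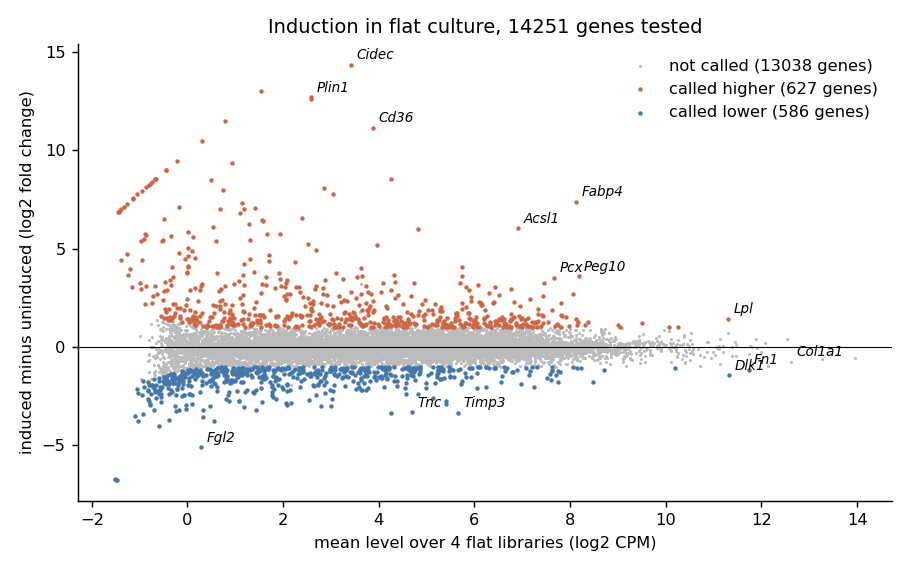
Each point is 1 gene: the x axis gives its mean level over the 4 flat libraries (log2 CPM) and the y axis its log2 fold change, induced minus uninduced. Orange marks the 627 genes called higher, blue the 586 called lower and grey the rest. Increases reach above 10 on the log2 scale, where the uninduced level was at or near 0 counts, and the decreases of genes with high CPM (Fn1, Dlk1) are much smaller.

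The induced group carried the markers of fat cells. All 6 adipocyte markers with enough counts rose: Adipoq, Plin1, Fabp4, Cidec, Pparg and Cebpa. Adipoq, Plin1 and Cidec each had 1 count over both uninduced libraries. They had enough counts only through the induced group, so they could only rise. Leptin (Lep) stayed at the edge of detection, with 0 and 0 counts in the uninduced and 3 and 3 in the induced libraries, and the brown fat gene Ucp1 had 0 counts in all 4. Preadipocyte markers did not vanish: of 7, Dlk1 fell, while Pdgfra (-0.31 ± 0.044) and Vim (-0.23 ± 0.039) changed by less than 2-fold. Bulk RNA cannot tell fewer cells of a type from less RNA per cell. Among markers of other cell types, the leukocyte and macrophage genes Ptprc, Adgre1 and Itgam had 0 counts in every flat library. The macrophage genes Csf1r, Cd68 and Lyz2 were detected, and Lyz2 fell from 5.81 and 4.58 to 1.1 and 1.92 CPM. Endothelial Tek had 17 and 12 counts uninduced and 0 and 0 induced, and epithelial Krt8 had 65 and 47 against 5 and 4. Tek and Krt8 were each the only 1 of 5 genes in their lists with enough counts to be tested. Endothelial Pecam1 had 9 and 4 counts uninduced and 1 and 10 induced. The muscle genes Myod1, Myog and Ckm were at 0 in all flat libraries, and the bone gene Ibsp as well. Other members of these lists were detected and not called. Muscle Des had 113 and 69 counts uninduced and 68 and 103 induced. Of the bone and cartilage list, Sox9 had 1657 and 1032 against 660 and 947, and Alpl 26 and 16 against 11 and 19. Lyz2 was not called with all 8 libraries.

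Of 23 adipogenic transcription factors, 5 rose and 2 fell (list median 0.44 log2). Cebpa (ENSMUSG00000034957, chr7:35119293-35121928, GRCm38), which holds cells in the fat state, stood at 14.3 and 15.8 CPM in the uninduced and 192 and 179 CPM in the induced libraries. The groups lay far apart, with a fold change of 3.63 ± 0.072 (adjusted p = 6.53e-24). Pparg, the receptor that troglitazone activates, stood at 31.0 and 32.0 CPM in the uninduced and 85.2 and 80.1 CPM in the induced libraries, a smaller rise of 1.39 ± 0.072 (adjusted p = 7.15e-15). Klf15, a glucocorticoid-responsive factor of fat cells, rose from 0.283 and 0.0716 to 2.79 and 4.18 CPM (4.10 ± 0.49). The liver X receptor Nr1h3 (2.08 ± 0.12) and Ebf2 (1.6 ± 0.21) also rose. Gata2 (-1.31) and Gata3 (-1.0), factors that hold cells in the preadipocyte state, fell. Of the adipogenic transcription factors list, 0 fell with all 8 libraries and 1 fell without uninduced replicate 2, induced replicate 1 or induced replicate 2. Gata2 was not called without induced replicate 2 (-0.91) or with all 8 libraries, nor was Gata3 without uninduced replicate 2 (-0.88) or induced replicate 1 (-0.85) or with all 8 libraries.

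The early factor Cebpb did not pass the test. Its level was 78.8 and 146 CPM in the uninduced and 241 and 226 CPM in the induced libraries, with a wide gap between the uninduced replicates (1.07 ± 0.42, adjusted p = 0.192). It was called without uninduced replicate 2 (1.56), without induced replicate 2 (1.12) and by DESeq2 (1.05). Cebpd changed by 0.70 ± 0.085 (adjusted p = 1.51e-07), under the 2-fold minimum, and the PPARG partner Rxra by 0.70 ± 0.049. Of 13 PPARG cofactors and corepressors 3 rose: the coactivator Ppargc1b (2.44 ± 0.23), the phosphatidate phosphatase and coactivator Lpin1 (1.90 ± 0.093) and the corepressor Nrip1 (1.66 ± 0.086). The corepressor Ncor1 changed by 0.20 ± 0.048.

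**Figure D2:**
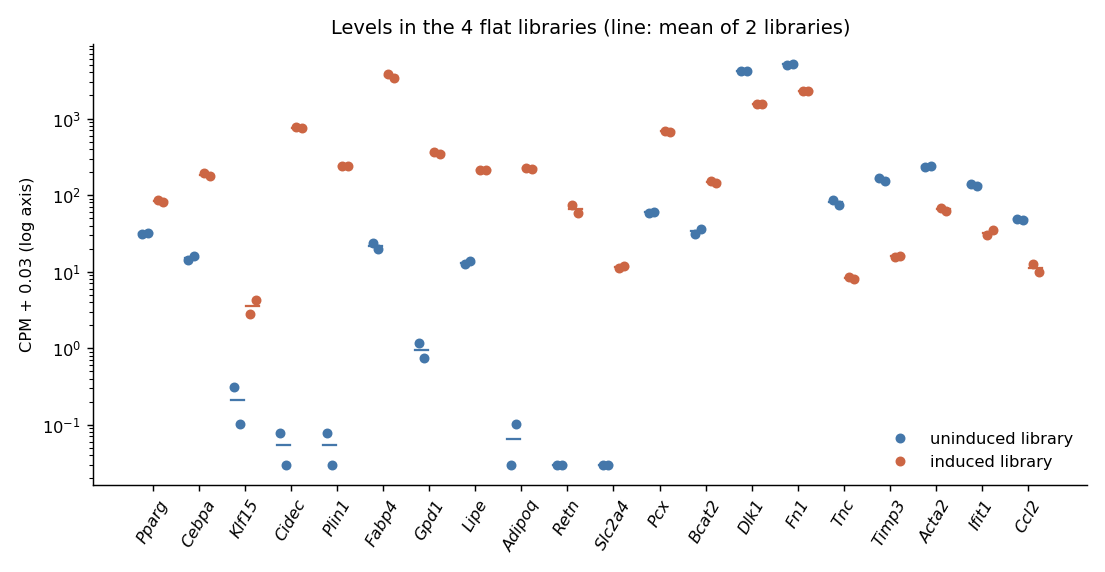
Levels of 20 genes in the 4 flat libraries, on a log axis of CPM with a constant of 0.03 added so that 0 can be drawn: blue points are uninduced, orange points induced libraries, and lines are the means of 2 libraries. Cidec, Plin1, Adipoq, Retn and Slc2a4 start at 0 or 1 count over both uninduced libraries, whereas Dlk1 is still at 1571 and 1550.2 CPM with induction.

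Of 14 lipid droplet proteins measured, 8 rose and 0 fell (median 1.16). Cidec (ENSMUSG00000030278, chr6:113424634-113435760), which fuses small droplets into a large one, had 1 count over both uninduced libraries and 764 and 746 CPM with induction. From so few counts the ratio is 26496 with a 95% counting interval from 4755 to 1046600.0. The lipase brake G0s2 rose from 0.189 and 1.00 to 120.5 and 104 CPM. Fitm2, which partitions triglyceride into droplets, rose from 32.4 and 32.1 to 150.5 and 157 CPM (2.25 ± 0.062) and the droplet coat protein Plin4 from 124 and 140.0 to 386 and 394 CPM (1.57 ± 0.055). Plin3 (-0.17 ± 0.051) and Rab18 (-0.01 ± 0.048), which are found on droplets of many cell types, did not change by 2-fold.

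Of 18 genes of fatty acid uptake, binding and activation, 6 rose. The fatty acid carrier Fabp4 (ENSMUSG00000062515, chr3:10204088-10208576) stood at 23.5 and 19.5 CPM in the uninduced and 3819 and 3420.5 CPM in the induced libraries (7.38 ± 0.092). Lipoprotein lipase (Lpl), which frees fatty acids from lipoproteins, was already high, at 1519 and 1557 CPM in the uninduced and 4172 and 4169 CPM in the induced libraries, and rose by 1.44 ± 0.039. The acyl-CoA synthetase Acsl1 moved from 14.9 and 14.9 to 977 and 966 CPM (6.03 ± 0.061, adjusted p = 2.09e-30), and the scavenger receptor Cd36 from 0.425 and 0.0716 to 655 and 656 CPM. Gpihbp1, the anchor of lipoprotein lipase on vessel walls, fell (-2.21 ± 0.59). The lipoprotein receptors Vldlr (0.11 ± 0.047) and Lrp1 (-0.76 ± 0.047) did not change by 2-fold. Gpihbp1 was not called without uninduced replicate 1 (-2.21) or induced replicate 1 (-1.60) or with all 8 libraries.

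In triglyceride assembly, 8 of 19 genes rose and 0 fell. Glycerol-3-phosphate dehydrogenase Gpd1, which makes the glycerol backbone, stood at 1.13 and 0.716 CPM in the uninduced and 368 and 347 CPM in the induced libraries (8.52 ± 0.10). The acyltransferases Agpat2 (3.04 ± 0.059), Dgat1 (2.36 ± 0.066) and Dgat2 (3.27 ± 0.090) rose, while Agpat3 changed by 0.31 ± 0.053. Pck1, a source of glycerol in fat cells, had 0 counts without induction and was at least 23.1-fold higher with it, with 3 counts over the group taken as the floor. The mitochondrial form Pck2 changed by only 0.20 ± 0.052. Fewer genes of de novo fatty acid synthesis were called: 2 of 21 genes rose, the desaturase Scd1 (2.60 ± 0.054) and the lipogenic regulator Thrsp (6.79 ± 0.31), and the list median was 0.41. The related desaturase Scd2 (0.11 ± 0.043) and Fads1 (-0.07 ± 0.051) did not move by 2-fold.

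Of the 51 lists, that of lipolysis had the largest share of genes that rose: 12 of 18 genes rose and 0 fell, with a median of 2.24. This was 66.7%, against 4.4% of all genes tested. The list has 23 members, of which 18 had enough counts. Genes with 0 uninduced counts, such as Hcar1 and Hcar2 below, were tested only through the induced group and could only rise. Hormone-sensitive lipase Lipe (ENSMUSG00000003123, chr7:25379527-25398710) stood at 12.5 and 13.7 CPM in the uninduced and 214 and 214 CPM in the induced libraries (4.04 ± 0.069), and adipose triglyceride lipase Pnpla2 at 21.6 and 23.2 CPM in the uninduced and 203 and 199 CPM in the induced libraries (3.17 ± 0.064). The lipase cofactor Abhd5 (1.46 ± 0.055) and the protein kinase A subunit Prkar2b (1.46 ± 0.056) rose less. The stimulatory G protein Gnas (-0.10 ± 0.043) and the lysosomal lipase Lipa (-0.42 ± 0.048) did not pass. The nicotinic acid and ketone receptor Hcar2 and the lactate receptor Hcar1 had 0 counts without induction and were at least 47.0-fold and 34.8-fold higher with it. Of 23 G protein-coupled receptors and partners, 8 rose and 2 fell. Mrap, which carries melanocortin receptors to the surface, was at least 267-fold higher and the short-chain fatty acid receptor Ffar2 at least 64.8-fold. The angiotensin receptor Agtr2 (-2.98 ± 0.17) and the neuropeptide Y receptor Npy1r (-1.22 ± 0.10) fell. These floors and intervals cover counting error only. Of the lipolysis enzymes and regulators list, 1 fell without uninduced replicate 1 or induced replicate 1.

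Of 16 endocrine genes of fat cells, 9 rose and 2 fell. Resistin (Retn, ENSMUSG00000012705, chr8:3655770-3660110), a secreted hormone of mouse fat, had 0 counts without induction and 73.6 and 58.0 CPM with it, at least 759.9-fold higher. Adiponectin (Adipoq) went from 1 count to 229 and 217 CPM. Angiotensinogen (Agt), the precursor of the vasoactive angiotensins, was present without induction and rose from 102 and 107 to 673 and 691 CPM (2.70 ± 0.050). The lipase inhibitor Angptl4 rose by 1.87 ± 0.051. Visfatin (Nampt, 0.78 ± 0.054) and Angptl2 (-0.25 ± 0.046) stayed under 2-fold. Igf1 (-1.05 ± 0.059) fell, near the limit. Of the adipocyte endocrine genes list, 1 fell with all 8 libraries. Igf1 was not called with all 8 libraries.

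Among 28 genes for insulin signals and glucose entry, 7 rose and 0 fell, but the list median was 0.23. The insulin-responsive transporter Slc2a4 went from 0 counts to 11.1 and 11.9 CPM, at least 136-fold higher. In the 9 genes of caveolae, the membrane pits that are dense in fat cells, Cav2 (1.26 ± 0.057), Cavin2 (1.41 ± 0.054) and Cd36 rose, and Cav1 (0.80 ± 0.053), Cavin1 (0.64 ± 0.042) and Ehd2 (0.73 ± 0.049) were higher by less than 2-fold.

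Among glycolysis and lactate genes, 11 of 24 genes rose, 0 fell and the median was 0.98. Lactate dehydrogenase Ldha stood at 484 and 464 CPM in the uninduced and 1089 and 1115 CPM in the induced libraries (1.22 ± 0.044), aldolase Aldoa at 855 and 846 CPM in the uninduced and 1753 and 1719 CPM in the induced libraries (1.03 ± 0.041). Phosphoglycerate kinase Pgk1 rose by 1.02 ± 0.049 and Egln3, an oxygen sensor, by 2.54 ± 0.066. Hexokinase Hk2 rose by 1.30 ± 0.066, whereas pyruvate kinase Pkm (0.38 ± 0.041) and Tpi1 (0.88 ± 0.042) did not reach 2-fold. The list held 0.601 and 0.575% of all counts without and 1.07 and 1.08% with induction. Of 34 genes of the pentose phosphate path, NADPH and glutathione, 6 rose, among them transaldolase Taldo1 (1.89 ± 0.063), the glutathione transferase Mgst3 (2.65 ± 0.062) and the epoxide hydrolase Ephx2 (1.94 ± 0.053). The cystine transporter Slc7a11 (-1.09 ± 0.18) fell. Pgk1 was not called without uninduced replicate 2 (0.94) or induced replicate 2 (0.98), nor was Slc7a11 without uninduced replicate 1 (-0.80) or induced replicate 1 (-0.99).

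Pyruvate carboxylase (Pcx, ENSMUSG00000024892, chr19:4510472-4621752), which feeds the citrate used for fat synthesis, stood at 58.7 and 60.6 CPM in the uninduced and 689.9 and 676 CPM in the induced libraries (3.52 ± 0.052, adjusted p = 9.57e-27), the largest change among 32 genes of the citrate cycle and pyruvate use. Of these genes 11 rose, including isocitrate dehydrogenase Idh3a (2.44 ± 0.055), the dicarboxylate carrier Slc25a10 (2.30 ± 0.061) and pyruvate dehydrogenase Pdhb (1.50 ± 0.058), while Idh2 (0.61 ± 0.047) did not reach 2-fold. In the breakdown of branched-chain amino acids, another carbon source of fat cells, 8 of 27 genes rose. The mitochondrial transaminase Bcat2 rose from 31.1 and 36.4 to 152 and 143 CPM (2.14 ± 0.069), while the cytosolic Bcat1 fell (-1.07 ± 0.14). The dehydrogenase subunit Bckdhb (1.70 ± 0.082), Aldh6a1 (1.52 ± 0.069) and Hibadh (1.26 ± 0.050) rose further along the same path. Bcat1 was not called without uninduced replicate 1 (-0.82) or induced replicate 1 (-0.98) or with all 8 libraries.

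Of 20 genes of mitochondrial fatty acid oxidation 5 rose, with Acadm at 1.30 ± 0.055, Hadh at 1.23 ± 0.054 and Hadhb at 1.14 ± 0.067. Peroxisomes, which shorten very long fatty acids, had 8 of 35 genes higher, among them the division factor Pex11a (2.19 ± 0.090), with Crat (1.35 ± 0.053), catalase Cat (1.29 ± 0.054) and Scp2 (1.28 ± 0.051). The 44 nuclear-encoded subunits of the respiratory chain all had a fold change above 0, from 0.30 to 2.44, with a median of 0.60, but only 4 passed: cytochrome c (Cycs, 2.27 ± 0.062), Uqcrfs1 (1.18 ± 0.058), Cyc1 (1.17 ± 0.052) and Cox7a1 (2.44 ± 0.48). Transcripts encoded by the mitochondrial genome itself had a median of 0.04 and 0 of 13 passed. Mitochondrial ribosomal proteins had a median of 0.47 with 1 of 41 higher (Mrpl12, 1.42 ± 0.063), and cytosolic ribosomal proteins 0.14 with 0 of 45. The 1 of 41 is 2.44%, below the 4.4% of all genes tested that rose. Of the mitochondrial ribosomal proteins list, 2 rose without induced replicate 2. Of the cytosolic ribosomal proteins list, 1 fell without induced replicate 2.

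Of 10 genes of brown and beige fat with enough counts, 3 rose and 2 fell. The potassium channel Kcnk3 rose from 9.73 and 10.8 to 65.7 and 58.8 CPM (2.61 ± 0.098) and Eva1a fell (-2.17 ± 0.29), while Pdk4 (0.92 ± 0.062) and Slc25a42 (0.81 ± 0.077) did not reach 2-fold. Of 25 carbonic anhydrases, pumps and channels, 7 rose and 3 fell. The beta subunit of the sodium pump, Atp1b1, fell from 116 and 114 to 15.7 and 15.4 CPM (-2.89 ± 0.076). Mitochondrial carbonic anhydrase Car5b, which supplies bicarbonate to pyruvate carboxylase, rose by 2.25 ± 0.061. Of the brown and beige fat list, 1 fell with all 8 libraries or without uninduced replicate 2 or induced replicate 1. Of the carbonic anhydrases, pumps and ion channels list, 1 fell with all 8 libraries.

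Dexamethasone and triiodothyronine were given only in the first 2 days, and their response genes were read on day 7. Of 19 genes of the glucocorticoid list, 7 rose and 0 fell. The lists share members, so a gene can count in several of them, such as Angptl4 here and among the endocrine genes. Fkbp5, an induced chaperone of the receptor, stood at 122 and 131 CPM in the uninduced and 379.9 and 405 CPM in the induced libraries (1.64 ± 0.053) and the leucine zipper protein Tsc22d3 at 66.2 and 66.7 CPM in the uninduced and 176 and 182 CPM in the induced libraries (1.43 ± 0.055). The receptor gene Nr3c1 itself changed by 0.05 ± 0.049, and the metallothionein Mt1 by 0.30 ± 0.046. Of 9 thyroid hormone genes 3 rose and 1 fell. Those that rose were Thrsp, the transporter Slc16a10 (2 and 0 counts uninduced against 36 and 36 induced) and Hr (1.59 ± 0.49). The receptor Thra changed by 0.06 ± 0.051. In retinoid metabolism 6 of 20 genes rose: Aldh1a7 from 3.26 and 3.72 to 216 and 219 CPM (5.98 ± 0.085), Aldh1a1 from 8.93 and 8.09 to 45.7 and 49.9 CPM (2.48 ± 0.10) and Retsat (1.42 ± 0.058) among them. The near-identical sequences of Aldh1a1 and Aldh1a7 mean that their counts may be shared. Of the thyroid hormone receptors and response list, 0 fell with all 8 libraries or without uninduced replicate 1, induced replicate 1 or induced replicate 2. Hr was not called without uninduced replicate 2 (1.26) or induced replicate 2 (1.48) or with all 8 libraries.

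Several genes outside the lists of fat metabolism were among those with the largest increases. The imprinted, retrotransposon-derived gene Peg10 rose from 83.1 and 82.8 to 1075 and 947 CPM (3.61 ± 0.059). Lgals12, a galectin of lipid droplets, rose from 0.189 and 0.143 to 24.7 and 23.7 CPM (7.08 ± 0.26). Fam83a had 1 count over both uninduced libraries and 24.5 and 23.8 CPM with induction. Prl2c5, a gene of the proliferin family, rose from 0.142 and 0.143 to 21 and 17.3 CPM, but its family has near-identical copies and the count may belong to several of them. In all, 46 of the genes that rose had at most 3 counts over both uninduced libraries, 23 of them 0. By contrast, 7 of the genes that fell had at most 3 counts in the induced libraries. The chemokine Cxcl15 had 30 counts over both uninduced libraries and 0 over both induced ones, at least 7.66-fold lower. The proton pump subunit Atp6v0a4 had 70 counts against 3, a ratio of 17.9 with a counting interval from 5.87 to 88.8, and Acpp, Prss16 and Slamf8 had 33, 39 and 44 counts against 2, 2 and 3. Cxcl15 and Prss16 were not called with all 8 libraries.

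**Figure D3:**
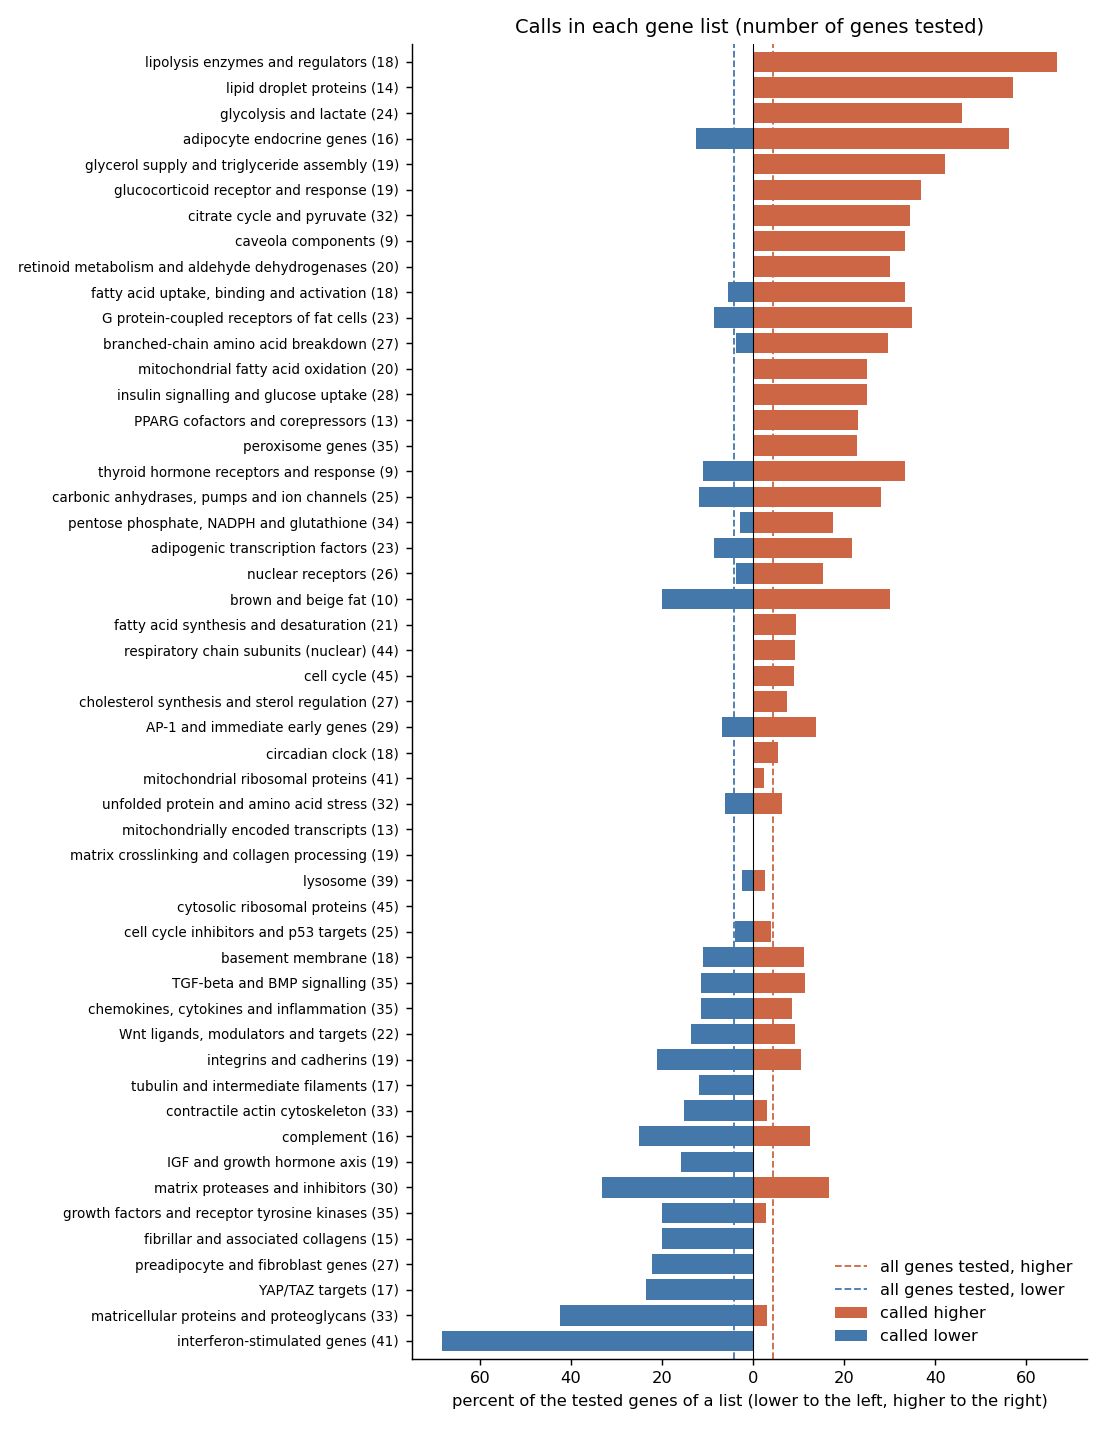
For 51 gene lists, bars give the percent of tested genes called higher (orange, to the right) and lower (blue, to the left), with the number of genes tested in brackets. Dashed lines mark the shares over all genes tested, 4.4% and 4.11%. Lists of fat storage and energy metabolism stand at the top, and matrix and interferon lists at the bottom, where 28 of 41 interferon-stimulated genes fell.

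Among preadipocyte and fibroblast genes, 6 of 27 fell and 0 rose. Dlk1 (ENSMUSG00000040856, chr12:109452823-109463336), a membrane protein that holds preadipocytes back, stood at 4187 and 4179 CPM in the uninduced and 1571 and 1550.2 CPM in the induced libraries (-1.42 ± 0.039, adjusted p = 7.55e-21). Fgl2 fell further, to 0.253 and 0.0663 from 5.43 and 5.23 CPM (-5.09 ± 0.45). The Wnt modulator Sfrp2 (-2.07 ± 0.093), the transcription factor Osr2 (-2.01 ± 0.11) and the microfibril protein Fbn1 (-1.38 ± 0.052) fell as well. Other large decreases were in Rerg (-3.01 ± 0.18), Arnt2 (-3.07 ± 0.32), Gfra1 (-2.95 ± 0.24) and Sorbs2 (-2.85 ± 0.23), and the lipocalin Apod fell from 288 and 323 to 76.8 and 72.7 CPM (-2.03 ± 0.060). By loss in CPM the decreases also included the secreted protein Aebp1 (from 1673 and 1733 to 822 and 801 CPM, -1.07 ± 0.042) and the proteoglycan osteoglycin (Ogn, from 601 and 668 to 259.8 and 295 CPM, -1.19 ± 0.065). Fbn1 was not called with all 8 libraries.

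Of 33 matricellular proteins and proteoglycans, 14 fell and 1 rose (median -0.86). Tenascin C (Tnc) fell from 87.1 and 74.0 to 8.53 and 7.89 CPM (-3.31 ± 0.10), thrombospondin Thbs1 from 647 and 672 to 199 and 187 CPM (-1.78 ± 0.049) and fibulin Fbln1 from 357 and 339 to 110.4 and 107 CPM (-1.68 ± 0.052). Fibronectin (Fn1, ENSMUSG00000026193, chr1:71585520-71653200) stood at 5031 and 5158 CPM in the uninduced and 2275 and 2274 CPM in the induced libraries (-1.16 ± 0.038). Other members stayed within 2-fold, such as biglycan (Bgn, -0.25 ± 0.038) and Fbln2 (-0.03 ± 0.038). The main fibrillar collagens were lower by less than 2-fold: Col1a1 stood at 8070.4 and 8156 CPM in the uninduced and 4971 and 4742 CPM in the induced libraries (-0.74 ± 0.037), with Col1a2 at -0.56 ± 0.034 and Col3a1 at -0.59 ± 0.036. Of 15 fibrillar and associated collagens, 3 fell (Col8a1, -1.92 ± 0.20, Col12a1, -1.29 ± 0.058, and Col14a1, -1.37 ± 0.42). Crosslinking and collagen-processing enzymes gave 0 and 0 calls of 19, with Lox at -0.48 ± 0.040. Of the fibrillar and associated collagens list, 1 fell with all 8 libraries. Col14a1 was not called without uninduced replicate 1 (-0.80) or induced replicate 2 (-1.07) or with all 8 libraries. Fn1 and Col12a1 were not called with all 8 libraries.

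In the basement membrane, the layer that surrounds fat cells, 2 of 18 genes rose and 2 fell. Col15a1 rose by 1.44 ± 0.068, Lama5 fell (-1.07 ± 0.099) and Col4a1 changed by 0.05 ± 0.038. Matrix proteases and their inhibitors moved both ways, 5 higher and 10 lower of 30. Stromelysin Mmp3 fell from 112 and 110.0 to 14.8 and 17.8 CPM (-2.76 ± 0.081) and the inhibitor Serpine2 from 347 and 329.5 to 124 and 132 CPM (-1.40 ± 0.052). The gelatinase Mmp2 (-0.96 ± 0.038) and the membrane protease Mmp14 (-0.57 ± 0.041) stayed under 2-fold. The metalloproteinase inhibitor Timp3 fell from 166 and 154 to 15.7 and 15.8 CPM (-3.34 ± 0.073). Timp3 shares 1733 of its 8144 exon bases with Syn3 on the opposite strand, and Syn3 fell alike (-3.33 ± 0.11). Counts on these shared bases cannot be told apart without the strand setting. A further 24 of the named genes that rose or fell share exon bases with an opposite-strand gene whose log2 change lay within 0.5 of their own. They include Abhd5, Aldh6a1, Aldoa, Arnt2, Bcat2, Cebpa, Col15a1, Crat, Dhx58, Ebf2, Fbn1 and Fitm2. The others are Fn1, Gpd1, Kcnk3, Lipe, Mrpl12, Nrg1, Retsat, Sfrp2, Slc25a10, Tagln, Thbs1 and Tnc. The same limit holds for their shared bases only. These are few in some genes, such as 25 of 2911 exon bases in Aldoa, 51 of 2636 in Cebpa and 292 of 11685 in Fn1. In Tagln they are 1241 of 1988. Of the basement membrane list, 1 rose with all 8 libraries and 1 fell with all 8 libraries. Of the matrix proteases and inhibitors list, 3 rose with all 8 libraries. Lama5 was not called without induced replicate 1 (-0.95). Col15a1 was not called with all 8 libraries.

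Of 33 contractile actin genes, 5 fell and 1 rose. Smooth muscle actin (Acta2, ENSMUSG00000035783, chr19:34241090-34255590) stood at 235 and 241 CPM in the uninduced and 68.5 and 62.8 CPM in the induced libraries (-1.86 ± 0.056). Transgelin (Tagln, -2.10 ± 0.13), myosin light chain Myl9 (-2.31 ± 0.18) and tropomyosin Tpm1 (-1.06 ± 0.048) fell with it, and filamin Flna (-0.84 ± 0.044) and caldesmon Cald1 (-0.52 ± 0.043) were lower by less than 2-fold. Among 17 targets of the mechanical YAP and TAZ path 4 fell and 0 rose, including Ankrd1 (-1.94 ± 0.25) and Ccn2 (-2.24 ± 0.66). Of the 19 integrins and cadherins, which bind cells to matrix and to each other, 2 rose and 4 fell. The integrin alpha subunits Itga6 (2.39 ± 0.086) and Itga7 (2.50 ± 0.20) were those that rose, Itga1 (-1.38 ± 0.19) and Itga3 (-1.23 ± 0.18) were among those that fell, and the shared beta subunit Itgb1 changed by -0.39 ± 0.043. Of the YAP/TAZ targets list, 2 fell without uninduced replicate 1. Of the integrins and cadherins list, 0 fell with all 8 libraries. Ccn2 was not called without uninduced replicate 1 (-2.16), induced replicate 1 (-2.15) or induced replicate 2 (-2.37). Itga1 and Itga3 were not called with all 8 libraries.

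Of the 51 lists, the largest share of genes that fell was among interferon-stimulated genes, the antiviral genes that interferon switches on in nearly all cells. Of 41 measured, 28 fell and 0 rose, and the fold change was below 0 in all 41 (from -3.54 to -0.08, median -1.14). Without each flat library in turn, 27 to 29 fell. With all 8 libraries in 1 model 3 fell (Bst2, Dhx58 and Irf9), although the median was -1.14, and with the induced spheroids left out, an alternative chosen after seeing the data, 28 fell. The list held 0.714 and 0.72% of all counts without and 0.493 and 0.491% with induction.

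Ifit1 (ENSMUSG00000034459, chr19:34640871-34650009), an RNA-binding effector, stood at 141 and 129.9 CPM in the uninduced and 30.0 and 34.5 CPM in the induced libraries (-2.06 ± 0.071, adjusted p = 1.79e-18). Isg15, a ubiquitin-like modifier, stood at 100.0 and 101 CPM in the uninduced and 30.3 and 24.7 CPM in the induced libraries (-1.88 ± 0.079, adjusted p = 1.2e-16). Bst2, which tethers budding virus to the membrane, fell from 426 and 443 to 209.9 and 198 CPM (-1.09 ± 0.049). Ifi44 fell from 83.0 and 86.8 to 14.7 and 13.9 CPM (-2.57 ± 0.083), Oasl2, of the oligoadenylate synthetase family, from 149.9 and 155 to 40.4 and 34.1 CPM (-2.04 ± 0.069), and Rsad2, the antiviral enzyme viperin, from 32.7 and 20.9 to 5.74 and 6.03 CPM (-2.21 ± 0.26). In each of these genes the 2 induced libraries lay below both uninduced ones. Over all 14251 genes tested, they lay below in 5053 and above in 5139. Among the factors of the interferon pathway, Irf7 fell by 1.57 on the log2 scale and Irf9 by 1.12, while Stat2 (-0.96 ± 0.059) did not reach 2-fold. With all 8 libraries Irf9 was called, and Ifit1, Isg15, Ifi44, Oasl2, Rsad2 and Irf7 were not. The antigen-presentation genes B2m (-0.43 ± 0.040) and H2-D1 (-0.08 ± 0.041) changed little. Isg15, Rsad2, Irf7, Irf9 and Stat2 were picked after their values were seen. Oas1a and Oas1g, as well as Ifit3 and Ifit3b, are near-identical pairs whose counts may be shared.

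**Figure D4:**
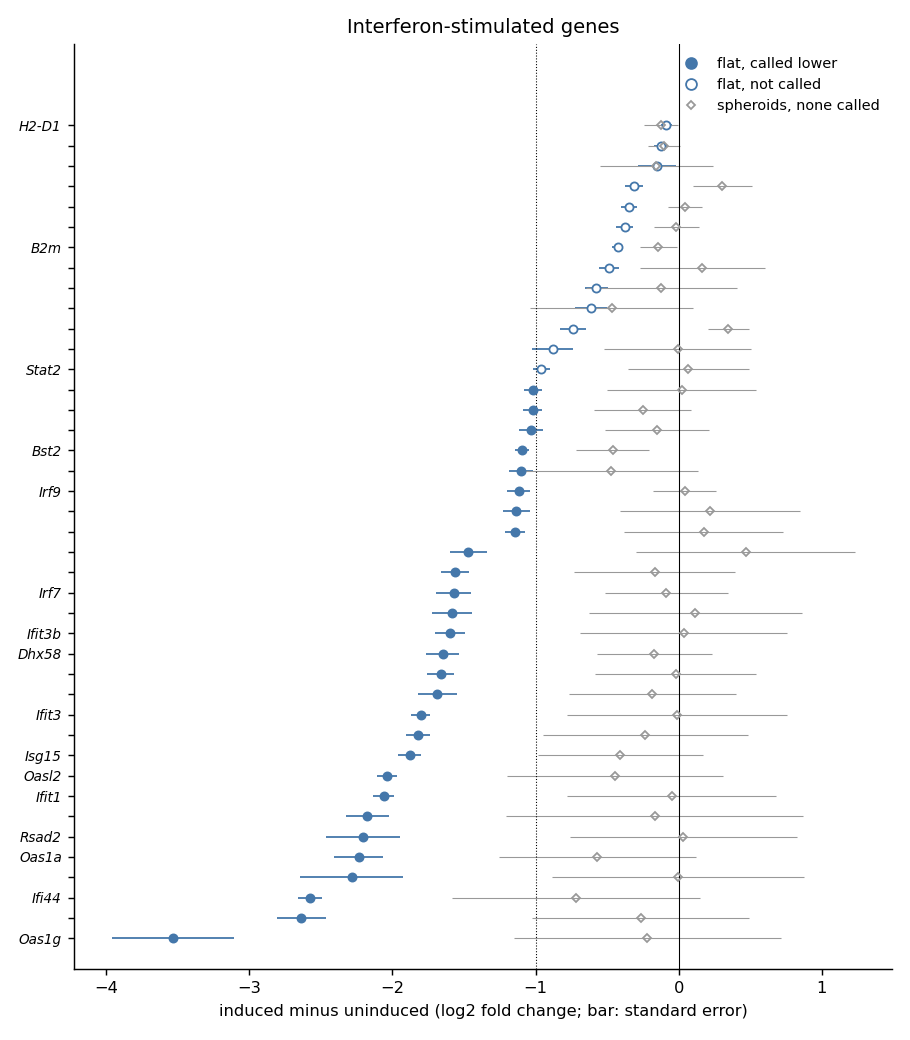
Log2 fold change on induction for the 41 interferon-stimulated genes, with standard errors: filled blue circles are genes called lower in flat culture, open circles those not called, and grey diamonds the same genes in spheroids. Genes named in the text are labelled, and the dotted line marks a 2-fold decrease. The flat values all lie below 0, whereas the spheroid values scatter around 0 with wide errors.

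Promoter windows of RefSeq (GRCm38.p6, 250 bases before to 50 after the start) were at hand for 9968 of 14250 tested symbols. The interferon-stimulated response element, searched on both strands as GAAA, any pair of bases, then GAAA, or the reverse complement, was found in 3.76% of these, in 2.58% of genes that rose and in 11.4% of genes that fell. Among the 20 interferon-stimulated genes that fell and had a window, 14 (70%) held it. These 14 are also part of the 11.4%. The share was not computed for the listed interferon-stimulated genes that were not called, so the 70% describes the list and does not bear on the decrease. This motif was added after the decrease had been seen. The 250 bases before the start are shown for 3 of these genes to let the element be read in place, with each match in capitals, 5′ to 3′ on the gene's strand: Isg15 (chr4:156200819-156201068, minus strand) with 3 overlapping matches, Ifit1 (chr19:34640639-34640888, plus strand) with 2 and Rsad2 (chr12:26456453-26456702, minus strand) with 1.
Isg15: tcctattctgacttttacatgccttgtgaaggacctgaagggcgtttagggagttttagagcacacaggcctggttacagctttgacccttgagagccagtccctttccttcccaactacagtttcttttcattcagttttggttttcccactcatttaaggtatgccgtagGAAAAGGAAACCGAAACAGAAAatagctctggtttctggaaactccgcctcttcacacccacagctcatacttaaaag
Ifit1: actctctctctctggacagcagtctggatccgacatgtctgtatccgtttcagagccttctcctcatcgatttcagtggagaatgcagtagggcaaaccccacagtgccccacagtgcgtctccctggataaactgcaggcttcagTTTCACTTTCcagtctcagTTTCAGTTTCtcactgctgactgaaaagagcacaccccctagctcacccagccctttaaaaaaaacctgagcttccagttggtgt
Rsad2: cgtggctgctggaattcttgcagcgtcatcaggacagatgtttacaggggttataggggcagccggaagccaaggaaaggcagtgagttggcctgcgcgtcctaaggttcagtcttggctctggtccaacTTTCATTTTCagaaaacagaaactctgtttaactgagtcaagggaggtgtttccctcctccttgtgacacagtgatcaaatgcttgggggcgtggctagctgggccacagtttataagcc
The matches lie between 78 and 57 bases before the start in Isg15 and between 104 and 76 in Ifit1. A match describes the sequence and says nothing of binding in these cells.

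The CArG box of serum response factor, a known element of contractile genes, was found in 1.6% of genes with a window. A gene counted if any of its windows held a match. The box was found in 3.04% of those that rose and in 2.72% of those that fell. In the contractile actin list it was found in 7 of 30 genes with a window (23.3%), whether or not the gene changed. In that list the LIM protein gene Fhl1 (2.88 ± 0.46), which rose, and Myl9, which fell, both hold a match, and Myl9 (chr2:156775214-156775463, plus strand) is shown with its match in capitals.
Myl9: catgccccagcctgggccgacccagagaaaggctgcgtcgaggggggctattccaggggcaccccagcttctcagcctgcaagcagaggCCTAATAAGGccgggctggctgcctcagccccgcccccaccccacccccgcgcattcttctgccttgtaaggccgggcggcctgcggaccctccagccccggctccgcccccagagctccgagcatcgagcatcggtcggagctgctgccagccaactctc
The TATA box (TATAAA) was in 8.6% of all genes with a window, 10.5% of those that rose and 16% of those that fell. The AP-1 site (TGACTCA or TGAGTCA) was in 4.52%, 6.56% and 10.3%. The PPAR/RXR direct repeat (AGGTCA, any base, AGGTCA) was in 4 genes in all and in 0 of those that changed. The C/EBP palindrome (TTGCGCAA) was in 0.341% of all genes with a window and 0.468% of those that rose. Windows this short do not reach distant sites.

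Of 35 chemokine, cytokine and inflammation genes 3 rose and 4 fell. The monocyte attractant Ccl2 fell from 48.2 and 47.7 to 12.7 and 9.88 CPM (-2.10 ± 0.11), Cxcl5 from 41.9 and 46.0 to 12.7 and 12.3 CPM (-1.81 ± 0.10) and the interferon-inducible chemokine Cxcl10 from 10.3 and 5.15 to 1.1 and 0.663 CPM (-3.20 ± 0.42). The 3 that rose are secreted acute-phase proteins: haptoglobin (Hp) from 2.83 and 2.79 to 29.6 and 31.2 CPM (3.43 ± 0.15), lipocalin Lcn2 from 1.98 and 2.65 to 29.0 and 31.7 CPM (3.74 ± 0.16) and orosomucoid Orm1 (3.81 ± 0.29). Of 16 complement genes 4 fell, including Masp1 (-1.10 ± 0.095) and C4b (-1.15 ± 0.12), while adipsin (Cfd), the complement factor secreted by fat cells, was at least 35.2-fold higher and C3 changed by 0.38 ± 0.043. Of the chemokines, cytokines and inflammation list, 7 fell without uninduced replicate 2 and 8 fell without induced replicate 1. Of the complement list, 1 rose with all 8 libraries or without any 1 flat library and 1 fell with all 8 libraries. Cxcl10, Masp1 and C4b were not called with all 8 libraries.

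Among secreted signals, 7 of 35 growth factors and receptor tyrosine kinases fell and 1 rose. Neuregulin Nrg1 fell from 35.1 and 33.8 to 7.6 and 9.21 CPM (-2.02 ± 0.12), ephrin Efnb2 from 57.9 and 49.8 to 20.9 and 22.5 CPM (-1.32 ± 0.091) and the lymphatic factor Vegfd from 195 and 198 to 89.1 and 96.2 CPM (-1.08 ± 0.054). In TGF-beta and BMP signalling 4 of 35 rose and 4 fell: the BMP antagonist Grem1 fell from 403 and 390.4 to 120.1 and 112 CPM (-1.78 ± 0.052), and the BMP target Id1 rose from 9.63 and 8.3 to 35.7 and 36.3 CPM (1.99 ± 0.11). Of 22 Wnt genes 2 rose and 3 fell. The receptor Fzd4 (1.34 ± 0.076) and Lgr4 (1.21 ± 0.071), which binds R-spondins, rose while the R-spondin Rspo2 (-2.12 ± 0.24) fell. Of the TGF-beta and BMP signalling list, 2 fell with all 8 libraries. Of the Wnt ligands, modulators and targets list, 5 fell without uninduced replicate 2 or induced replicate 2.

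Of 45 cell cycle genes 4 rose, 0 fell and 41 were not called (median 0.23). The share that rose was 8.89%, against 4.4% of all genes tested. The 4 were the cyclins Ccne1 from 14.9 and 11.3 to 32.1 and 34.6 CPM (1.32 ± 0.12) and Ccne2 (1.26 ± 0.14), the nucleotide reductase Rrm2 from 24.7 and 20.9 to 65.2 and 67.9 CPM (1.53 ± 0.084) and E2f2 (2.37 ± 0.38). The kinase Cdk4 (-0.34 ± 0.046) and Ccnd2 (0.01 ± 0.045) stayed within 2-fold, as did the inhibitor Cdkn2a (-0.15 ± 0.045) and the p53 target Mdm2 (0.19 ± 0.037). Of 27 cholesterol genes 2 rose, the exporter Abcg1 (3.09 ± 0.36) and Insig1 (1.28 ± 0.063). Of 39 lysosome genes 1 rose (Ctsc, 2.26 ± 0.20) and 1 fell (Ctsk, -1.09 ± 0.067), and of 32 stress genes 2 rose and 2 fell. Of 25 inhibitors and p53 targets 1 rose and 1 fell, of 26 nuclear receptors 4 and 1, of 29 immediate early genes 4 and 2, of 17 tubulins and intermediate filaments 0 and 2, and of 19 genes of the growth hormone axis 0 and 3. In each of these 6 small sets, stress genes included, a count moved by over 1.5 times with all 8 libraries or without 1 of the flat libraries (uninduced replicate 1 or 2, induced replicate 1 or 2). Over all genes tested, 4.4% rose and 4.11% fell. The lysosome list (2.56% each way) and the inhibitors and p53 targets (4% each way) lay below both shares. Stress genes stood at 6.25% each way, and nuclear receptors at 15.4% higher and 3.85% lower. Of the cell cycle list, 2 fell without uninduced replicate 2 and 1 fell without induced replicate 1.

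The same mixture was given to spheroids, and the difference between the inductions was tested with an interaction term over all 8 libraries. In that model of all 8 libraries, 0.583% of 15255 genes rose and 0.328% fell in spheroids. The same model gave 484 genes that rose and 205 that fell in flat culture. Spheroid replicates varied more. The biological coefficient of variation was 0.325 in induced and 0.11 in uninduced spheroids, against 0.0473 and 0.0469 in flat culture. Of the 627 genes that rose in flat culture, 559 had a fold change above 0 in spheroids, 84 were called there, and the median was 0.71 against 1.57. Of the 586 that fell, 460 were below 0, 25 were called, and the medians were -0.49 and -1.45. The flat medians are of genes chosen for their flat values, and the inductions share no library.

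The difference itself was called in 52 genes upward (0.341%) and 6 downward (0.0393%). Of these, 50 were genes that rose and 6 genes that fell in flat culture, each with the larger change in flat culture. This count rests on few libraries: it fell to between 1 and 9 without any one flat or uninduced spheroid library, and was 586 and 686 without induced spheroid replicate 1 or 2. Of the 5 genes with a called difference among those with the largest fold or CPM changes, Plin1 kept its call without each of the 8 libraries in turn, Acsl1 without 5 of the 8, and Gpd1, Pcx and Peg10 without 2. The spheroid levels of Plin1 were 5.82 and 8.07 CPM uninduced and 116 and 107 CPM induced. In flat culture Plin1 had 1 uninduced count, so the size of its difference depends on the prior count of the model. Acsl1 reached 91.3 and 140.3 CPM in induced spheroids from 25.3 and 29.7, a change of 2.07 against 6.03 in flat culture (difference 3.96 ± 0.29, adjusted p = 0.00316). For the interferon-stimulated genes no difference was called in 41, at a spheroid median of -0.10 and with the wide spheroid spread. Mitochondrially encoded genes held 1.57 to 2.25% of the counts in spheroids, above the flat libraries, and their part in these differences was not tested.

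**Figure D5:**
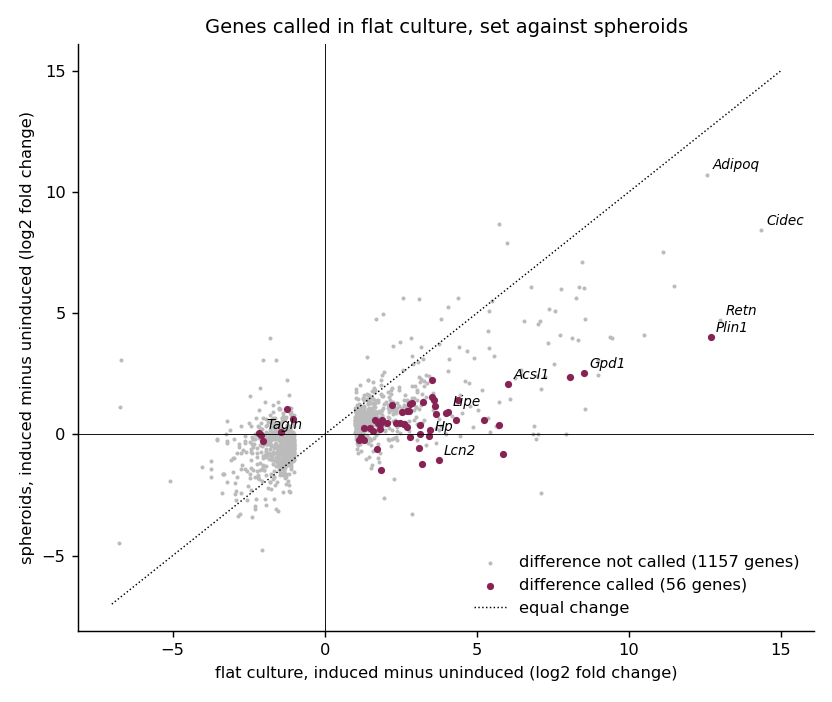
Each point is 1 of the 1213 genes called in flat culture, with its log2 fold change on induction in flat culture (x axis) and in spheroids (y axis). Purple marks genes with a called difference, and the dotted line equal change. Most points that rose lie between the dotted line and 0, Plin1 and Gpd1 well below the line and Adipoq closer to it.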

How the data were processed

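RNA sequencing of flat and spheroid 3T3-L1 cultures was deposited as whole-number read counts per gene, raw and not normalized, in 1 table with 1 column per library. The columns of the uninduced flat libraries carry other numbers than the sample titles, and replicate numbers here follow the titles. Per the submitters' processing notes, the authors used featureCounts 1.6.3, HISAT2 2.1.0, Trimmomatic 0.38 and FastQC 0.11.7, and the build is mm10. Per the labels, total RNA went into directional libraries. Neither the strand setting nor the annotation release was given in the labels or notes.

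Genes with enough counts (edgeR's filterByExpr, minimum count 10) in the 4 flat libraries were fitted with edgeR 4.0.16 in R 4.3.3 (TMM scaling, robust quasi-likelihood test, two-sided, Benjamini-Hochberg adjustment over all genes tested). A call needs an adjusted p under 0.05 and a 2-fold change, the thresholds the series' design text gives. The difference between the inductions was the interaction in a model of all 8 libraries. Spheroid fold changes and calls came from the same model. Alternatives were DESeq2 1.42.0, limma-voom (limma 3.58.1), other scaling, filters and library sets, and leaving out each library. The test on the 4 flat libraries was checked on simulated counts, and the interaction test was not.

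The comparison, the gene lists, the choice of the 4-library model and the rule for named genes were made with earlier results of these data known. The rule takes, in each direction, the 10 called genes that changed most in log2 fold, provided that their log2 CPM averaged 1 or more over the flat libraries, their groups did not overlap and their symbols were not of the Gm or Rik kind. It also takes the 10 with the largest gain and loss in CPM, in each direction the 5 called genes with at most 3 counts in 1 group and the highest CPM in the other, up to 4 called and 2 uncalled genes per list, and key genes of fat cells. Bcat1, Dhx58, Fgl2, Fhl1, Gata2, Gata3, Gpihbp1, Hcar1, Hcar2, Ifit3b, Irf7, Irf9, Isg15, Oas1a, Oas1g, Orm1, Pck1, Rsad2 and Stat2 lie outside it and were chosen after their values were seen. Positions are from GENCODE vM21 (GRCm38), which holds 14221 of the 14251 genes tested. Floors are 3 counts over a group and intervals are 95% exact intervals.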

Additional observations from a re-analysis of the deposited data

Results flagged for a closer look

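The change on induction was larger in flat culture than in spheroids for 19 named genes that rose and 2 that fell, by edgeR's interaction test over all 8 libraries with an adjusted p under 0.05 and at least a 2-fold difference. Differences are log2 values, flat minus spheroid. For lipid storage and breakdown, the difference was 8.69 for Plin1, 6.01 for Gpd1, 3.96 for Acsl1, 3.10 for Lipe, 2.17 for Scd1, 1.90 for Dgat1 and 1.04 for Scp2. For secreted proteins, the difference was 4.81 for Lcn2, 3.50 for Hp, 1.75 for Agt and 1.27 for Angptl4. For metabolism and transport, the difference was 3.63 for Abcg1, 1.63 for Egln3, 1.53 for Hk2 and 1.27 for Pcx. For transcription, channels and others, the difference was 2.46 for Cebpa, 2.19 for Kcnk3, 2.19 for Peg10 and 1.07 for Nrip1. The genes that fell were the contractile protein Tagln, with a difference of -2.06, and the neuregulin Nrg1, with -1.77. Spheroid replicates varied more than flat ones, and most of these calls depend on single libraries: over all genes 58 differences were called, between 1 and 9 without any one of the flat or uninduced spheroid libraries, 586 without induced spheroid replicate 1 and 686 without induced spheroid replicate 2. Plin1 kept its call without each of the 8 libraries, but it had 1 count in the uninduced flat libraries, so the size of its difference depends on the prior count of the model. A larger change need not mean a higher induced level, since starting levels differed too. Angptl4 stood at 101 and 106 CPM uninduced and 387 and 369 CPM induced in flat culture. In spheroids it stood at 327 and 400 CPM uninduced and 558 and 545 CPM induced. Acsl1, by contrast, stood at 977 and 966 CPM in induced flat libraries and 91.3 and 140.3 CPM in induced spheroids. Flat and spheroid CPM were scaled in separate models. The share of counts from mitochondrially encoded genes was 0.303 to 0.343% in flat culture and 1.57 to 2.25% in spheroids, and its part in the differences was not tested.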

How the results depend on the processing

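Higher calls numbered 627 and lower calls 586. Without 1 flat library at a time they ranged from 607 to 634 and from 478 to 606, where the side left with 1 library is assumed to vary like the other. With all 8 libraries in the model they were 484 and 205, and without a fold minimum 3280 and 3133. DESeq2 gave 568 and 443, limma-voom 638 and 587, and no filter on low counts 697 and 623. Size factors of DESeq2's kind in edgeR gave 628 and 586. The replicate block gave 611 and 552. Replicate numbers are only names here, since same-numbered libraries did not deviate together (correlation -0.0129). The difference between the inductions was called in 58 genes, and without each of the 8 libraries in turn, an alternative chosen after seeing the data, in 1 to 686. Of the named genes, Ccnd2 and Thra, neither of them called, changed sign: without 1 flat library at a time Ccnd2 ranged from -0.0348 to 0.0573 and Thra from -0.0149 to 0.125. The cause was not tested. Depth limits the genes with few counts in 1 group, whose folds are given as bounds or with counting intervals.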
